A study of Mus musculus with 2 samples.

Results

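The genes described here encode 10 enzymes of glycolysis: Hk2, Pfkp, Aldoa, Tpi1, Gapdh, Pgk1, Pgam1, Eno1, Pkm and Ldha. They were chosen by symbol, as 1 enzyme gene for each of 9 steps of the pathway and the lactate dehydrogenase that follows it, and they are 10 of the 32285 genes listed in the count tables. Aldoa is listed on 2 rows, so 11 rows were used, and 5 UMIs in each library came from its second row. UMIs are molecular tags that let copies of 1 RNA molecule be counted once.

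Single-cell RNA counts were taken from mouse gastruloids, clusters of embryonic stem cells in which a body axis starts to form outside an embryo. Each was seeded with about 300 cells, either R1 embryonic stem cells or a Sp5/8 double mutant, in N2B27, a medium without serum. From day 2 both groups were given 3 µM CHIR, an inhibitor of GSK3 that activates Wnt signalling, over 12 hours, and collection followed at day 2.5. Aggregates were pooled before dissociation, and each genotype has 1 library, so no difference below has a replicate check and no test was made. The labels do not say how many mutant clones were used.

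Glycolysis turns glucose into pyruvate in the cytosol and yields ATP and NADH. Lactate dehydrogenase reduces pyruvate to lactate and so returns the NAD+ that the pathway consumes. Pluripotent cells use glycolysis heavily, and the balance between glycolysis and respiration shifts as cells pass from the naive to the primed state and on to the germ layers.

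Sequences before the start sites are shown for the 3 members on which the comparisons below turn: Ldha for its spread over cell classes, Pfkp for the naive-like cells and Hk2 for the libraries. Each is the 250 bases before a start in RefSeq on GRCm38.p6, written 5′ to 3′ along the gene. Capitals mark ACGTG, the core of the element bound by hypoxia-inducible factors, and GGGCGG, the GC box known as a site of the Sp family to which Sp5 and Sp8 belong, each on either strand. The Ldha stretch is chr7:46845554-46845803 on the plus strand, the Pfkp stretch chr13:6648772-6649021 on the minus strand and the Hk2 stretch chr6:82774455-82774704 on the minus strand.
Ldha: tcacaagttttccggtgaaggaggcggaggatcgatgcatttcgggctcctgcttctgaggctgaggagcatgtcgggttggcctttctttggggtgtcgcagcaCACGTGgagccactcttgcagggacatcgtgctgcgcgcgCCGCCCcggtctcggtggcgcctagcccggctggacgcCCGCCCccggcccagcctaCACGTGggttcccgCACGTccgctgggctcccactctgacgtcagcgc
Pfkp: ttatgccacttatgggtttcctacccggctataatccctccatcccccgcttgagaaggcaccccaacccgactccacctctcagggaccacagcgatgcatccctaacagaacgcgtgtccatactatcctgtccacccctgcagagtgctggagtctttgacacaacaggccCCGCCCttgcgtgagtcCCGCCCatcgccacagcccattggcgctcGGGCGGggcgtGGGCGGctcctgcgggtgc
Hk2: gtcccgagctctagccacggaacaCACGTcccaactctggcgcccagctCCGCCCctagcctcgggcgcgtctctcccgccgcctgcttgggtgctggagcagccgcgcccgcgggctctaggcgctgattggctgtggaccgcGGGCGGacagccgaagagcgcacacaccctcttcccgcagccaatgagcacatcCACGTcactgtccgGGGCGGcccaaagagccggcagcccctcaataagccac
The Ldha stretch held 5 matches of ACGTG counted over both strands. Of these, 4 lie in 2 copies of CACGTG, a palindrome read once on each strand, at 145 and 48 bases before the start. Ldha has another start in RefSeq, not shown, whose window held neither ACGTG nor GGGCGG. Among 32851 start sites, 16.6% held ACGTG in the same window and 0.134% held it at least 5 times. Pfkp held no ACGTG and 4 copies of GGGCGG, and 4.09% of all start sites held at least 4. Hk2 held 2 matches of ACGTG and 3 of GGGCGG. All 10 members matched a start in RefSeq, over 16 starts in all. At least 1 start held ACGTG in 6 members (Hk2, Aldoa, Pgk1, Pgam1, Pkm and Ldha). GGGCGG, present at 32.7% of all start sites, was found in 8 members and in neither Gapdh nor Pgam1. The shares of all start sites count starts and not genes. Counted so, ACGTG was at 7 and GGGCGG at 10 of the 16 starts of the members. These matches are letters in a window and do not show binding.

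After the filters, 8707 cells of the library labelled wild type and 10587 of the library labelled double mutant were kept, with 97157331 and 97644169 UMIs and medians of 10571 and 8637 UMIs per cell. The libraries shared 27 cell barcodes. Levels are given in CPM, a gene's UMIs as a share of the total, scaled so that all genes sum to 1000000. Sp5 stood at 479 CPM under the double-mutant label and 109 CPM under the wild-type label, a 4.39-fold difference, and Sp8 at 40.1 against 20.8 CPM, a 1.93-fold difference. These counts go against the label. The assay reads 3′ ends and the labels do not say which part of either gene was removed, and counts from outside a removed part check nothing. Both libraries are therefore named by what they are labelled, and every direction between them rests on those labels. Fibroblast or feeder markers summed to 7.93 and 7.54 CPM, with Col3a1 and Lum at 0 in both. A list of 6 stress genes summed to 140 CPM in the library labelled wild type, against 213 CPM in the other, and its part in the results was not tested.

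Most members were higher in the library labelled double mutant. Tpi1 and Hk2 were 1.25-fold and Pfkp 1.23-fold higher, Gapdh 1.19-fold and Pkm 1.14-fold, and Eno1 alone was lower. Together the 10 genes held 0.557% of all UMIs in the library labelled wild type, against 0.621% in the other, a log2 ratio of 0.16 (95% counting interval 0.15 to 0.16). In CPM the sum stood at 5574 and 6210, and Gapdh, at 2424 and 2876 CPM, made up most of this gap. Intervals here and below are exact, cover counting error only and say nothing of the variation between cultures. Ratios are on a log2 scale with a pseudocount of 0.5 UMIs.

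Hk2, the hexokinase that traps glucose in the cell, stood at 123 CPM in the library labelled wild type, against 154 CPM in the other. Its log2 ratio was 0.33 (0.29 to 0.36). Pfkp, the platelet form of phosphofructokinase, was sparse at 8.68 and 10.7 CPM, a log2 ratio of 0.30 (0.17 to 0.44). Pfkp was the only member under a mean of 10 CPM, and its ratio rests on 843 and 1045 UMIs. In barcodes with few UMIs, which hold free RNA, Pfkp stood at 5.56 CPM under the wild-type label. Under the double-mutant label it stood at 13.0 CPM there, above its level in the cells. The part of free RNA in the ratio of Pfkp was not tested. Aldoa, the aldolase that splits the hexose, stood at 205 and 225 CPM, a log2 ratio of 0.14 (0.11 to 0.16). Tpi1, which interconverts the triose phosphates, stood at 161 and 202 CPM and had a log2 ratio of 0.33 (0.30 to 0.36). As counted, these upper steps were all higher in the library labelled double mutant, with intervals clear of 0. For Pfkp this holds without regard to free RNA.

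Gapdh, the dehydrogenase that makes NADH, stood at 2424 and 2876 CPM, a log2 ratio of 0.25 (0.24 to 0.25). Pgk1, the first ATP-yielding kinase, stood at 190 and 201 CPM, a log2 ratio of 0.08 (0.05 to 0.11). Pgam1, the mutase, did not differ beyond counting error at 705 and 707 CPM, with a log2 ratio of 0.00 (-0.01 to 0.02). Eno1, the enolase, was lower at 286 against 306 CPM, a log2 ratio of -0.10 (-0.12 to -0.07). Pkm, the pyruvate kinase, stood at 597 and 679 CPM, a log2 ratio of 0.19 (0.17 to 0.20). Ldha, which makes lactate, stood at 854 and 870 CPM, a log2 ratio of 0.03 (0.01 to 0.04). From Gapdh on, the ratios ran from -0.10 to 0.25 and differed in sign, while the 4 upper steps ran from 0.14 to 0.33.

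**Figure D1:**
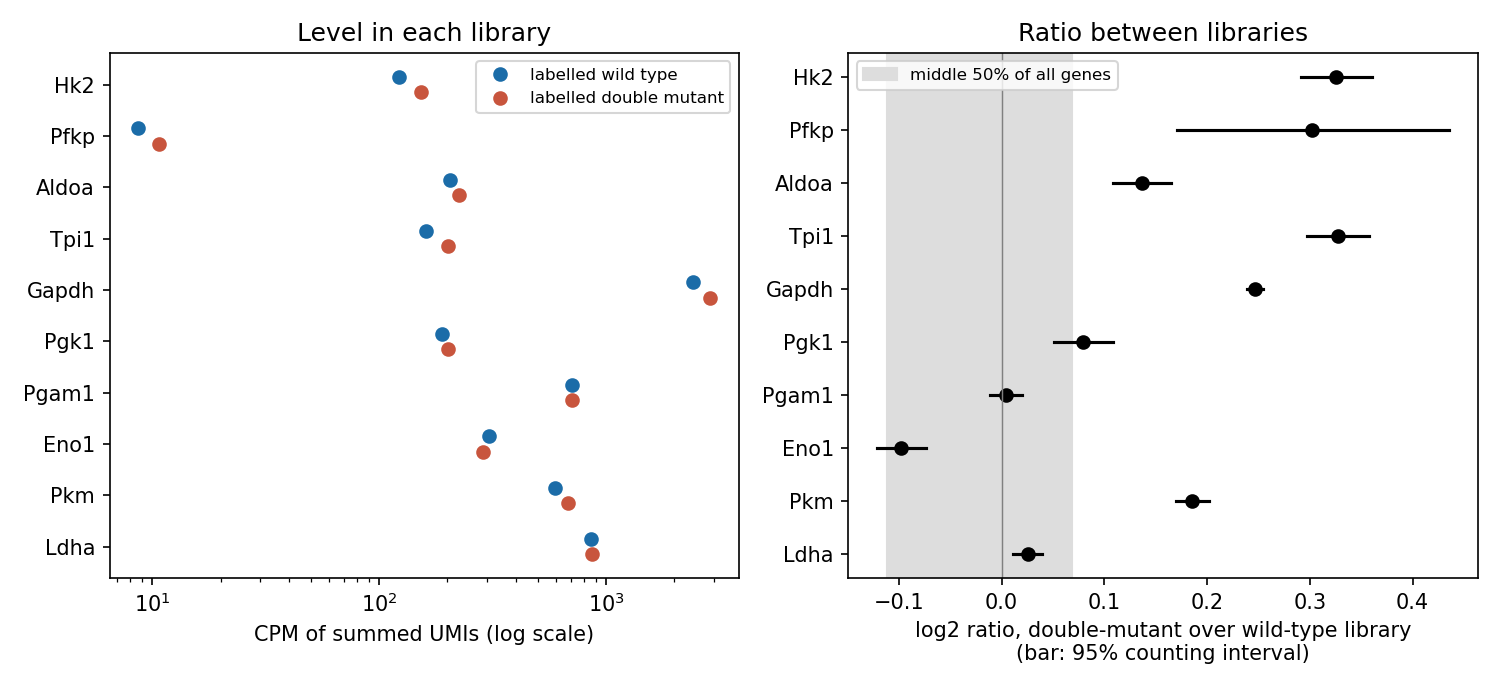
Level of each member in both libraries (left, CPM of summed UMIs on a log scale) and the log2 ratio of the library labelled double mutant over the library labelled wild type (right, bars are 95% counting intervals, the grey band holds the middle 50% of 7607 genes). Hk2, Pfkp and Tpi1 lie at 0.30 to 0.33, Gapdh at 0.25, and Eno1 is the only member below 0.

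Of the 10 members, 3 (Hk2, Pfkp and Tpi1) were at least 0.25 higher and none was that much lower. Pfkp lies under the mean of 10 CPM used for the shares of all genes. Among the 9 members above that mean, Hk2 and Tpi1 passed. Of 7607 genes with a mean of at least 10 CPM, 3.13% were that much higher and 4.67% that much lower. Gapdh stood just under the limit at 0.246, and it passed the limit with TMM scaling, with scaling that left out mitochondrial and ribosomal protein genes (0.26), and with at most 5% mitochondrial UMIs. The median over the 10 members was 0.16, against -0.02 for all genes, whose middle 50% ran from -0.11 to 0.07. Of those genes, 98.6% had a lower ratio than Tpi1, 96.7% lower than Gapdh and 28.6% lower than Eno1. Hk2, Tpi1 and Gapdh lie on chromosome 6, and the members on other chromosomes had a lower median, at 0.08. The 377 chromosome 6 genes with a mean of at least 10 CPM had a median of -0.02, as had all genes.

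The ratios of Tpi1, Hk2 and Gapdh between libraries were above 0 in each of the 4 larger cell classes. Tpi1 was higher in the library labelled double mutant by 0.35 in T cells, 0.28 in Eomes cells, 0.24 in Irx3 cells and 0.32 in the remaining cells. Hk2 was higher by 0.39, 0.27, 0.33 and 0.32 in the same order, and Gapdh by 0.30, 0.23, 0.20 and 0.25. Pfkp gave 0.42 (0.02 to 0.83) in T cells and 0.39 (0.20 to 0.59) in remaining cells. It gave 0.13 (-0.12 to 0.39) in Eomes cells and -0.21 (-0.83 to 0.35) in Irx3 cells, with intervals over 0. The part of free RNA in these Pfkp ratios was not tested. Aldoa and Pkm were higher in the same 4 classes, by 0.12 to 0.19, while Pgk1 was at 0.01 (-0.07 to 0.10) in T cells and Pgam1 and Eno1 stayed between -0.10 and 0.01. Ldha differed in sign: it gave -0.13 (-0.16 to -0.09) in T cells and 0.05 (-0.01 to 0.11) in Irx3 cells. With each class given the same weight in both libraries, the ratio of Ldha was -0.04 in place of 0.03.

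These classes were set by marker counts per cell. T cells held at least 2 UMIs of T (brachyury, the primitive streak and mesoderm factor), Eomes cells at least 2 of Eomes (a factor of the anterior streak and endoderm), and Irx3 cells at least 1 of Irx3 (a neural plate factor), in that order. Before them, 17 and 15 cells with at least 3 extraembryonic endoderm markers and 60 and 54 naive-like cells were set apart. Naive-like cells had at least 400 CPM over 10 naive markers, among them Zfp42, Esrrb and Dppa3. T cells numbered 832 and 1124, Eomes cells 1673 and 3504, Irx3 cells 1109 and 458, and remaining cells 5016 and 5432, giving first the library labelled wild type. The naive-like cells carried Zfp42 at 562 and 488 CPM, against 15.3 and 16.2 in remaining cells. Zfp42 is part of the score, so this difference follows from the choice of cells. Tdh and Nanog, listed as naive markers, were kept out of the score and went different ways. Tdh stood at 569 and 495 CPM, against 110 and 104 CPM in remaining cells. Nanog, at 90.4 and 94.7 CPM, was not above the 109 and 116 CPM of the remaining cells. Median depth was 12612 and 10467 UMIs in T cells and 10821 and 8386 in Irx3 cells, so the classes, set by UMIs per cell, also differ in depth.

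Ldha was the member that differed most between T and Irx3 cells, and its order over the classes was the same in both libraries, leaving out the few endoderm-like cells (603 and 584 CPM, on 125 and 93 UMIs). With the wild-type label it stood at 1050 CPM in T cells, 962 in Eomes cells, 818 in remaining cells, 665 in Irx3 cells and 473 in naive-like cells. With the double-mutant label the levels were 962, 950, 800, 687 and 500 CPM in the same order. The neighbours T and Eomes were apart in the library labelled wild type (log2 ratio 0.13, 0.09 to 0.16) and within counting error in the other (0.02, -0.01 to 0.05). Every other pair of neighbours had separate counting intervals. T over Irx3 gave 0.66 (0.62 to 0.70) and 0.49 (0.43 to 0.54), and Eomes over Irx3 gave 0.53 (0.50 to 0.57) and 0.47 (0.41 to 0.52).

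The other members moved less along that axis. Tpi1 was higher in T than in Irx3 cells by 0.21 (0.12 to 0.31) and 0.33 (0.21 to 0.45), at 171 against 148 CPM and 218 against 174 CPM. Aldoa was higher by 0.20 (0.12 to 0.28) and 0.16 (0.05 to 0.27), and Pkm by 0.13 (0.09 to 0.18) and 0.09 (0.03 to 0.15). Pgam1 was higher by 0.06 in both libraries. Pgk1 was higher by 0.12 (0.03 to 0.20) in the library labelled wild type but at -0.01 (-0.12 to 0.11) in the other. Hk2, at 0.01 and 0.07, did not differ beyond counting error in either library, and Eno1, at -0.08 (-0.15 to -0.01) and -0.03 (-0.13 to 0.06), differed beyond it only under the wild-type label. Pfkp, with 32 UMIs in the Irx3 cells of the library labelled double mutant, gave -0.22 and 0.40 with intervals over 0. Gapdh, often used as a reference gene, gave -0.06 (-0.08 to -0.03) and 0.04 (0.01 to 0.07).

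At the limit of 0.5 set for classes, Ldha alone of the 10 members passed for T over Irx3 in the library labelled wild type, where 2.14% of 7663 genes were that much higher and 2.23% that much lower. In the library labelled double mutant no member passed, against 2.63% of genes higher and 3.54% lower, but Ldha lay just under the limit there and passed it without doublets (0.52), with classes of at least 1 UMI (0.54) and with stricter marker counts (0.63). The difference between the libraries was not tested. The median over the members was 0.09 and 0.08, against 0.00 and -0.01 for all genes. Summed over the 10 members, the level ran from 5330 CPM in Irx3 to 5757 CPM in T cells with the wild-type label, and from 5860 to 6362 CPM in the other, and Ldha made up most of both gaps. The few endoderm-like cells were lower still, at 4507 and 5191 CPM.

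**Figure D2:**
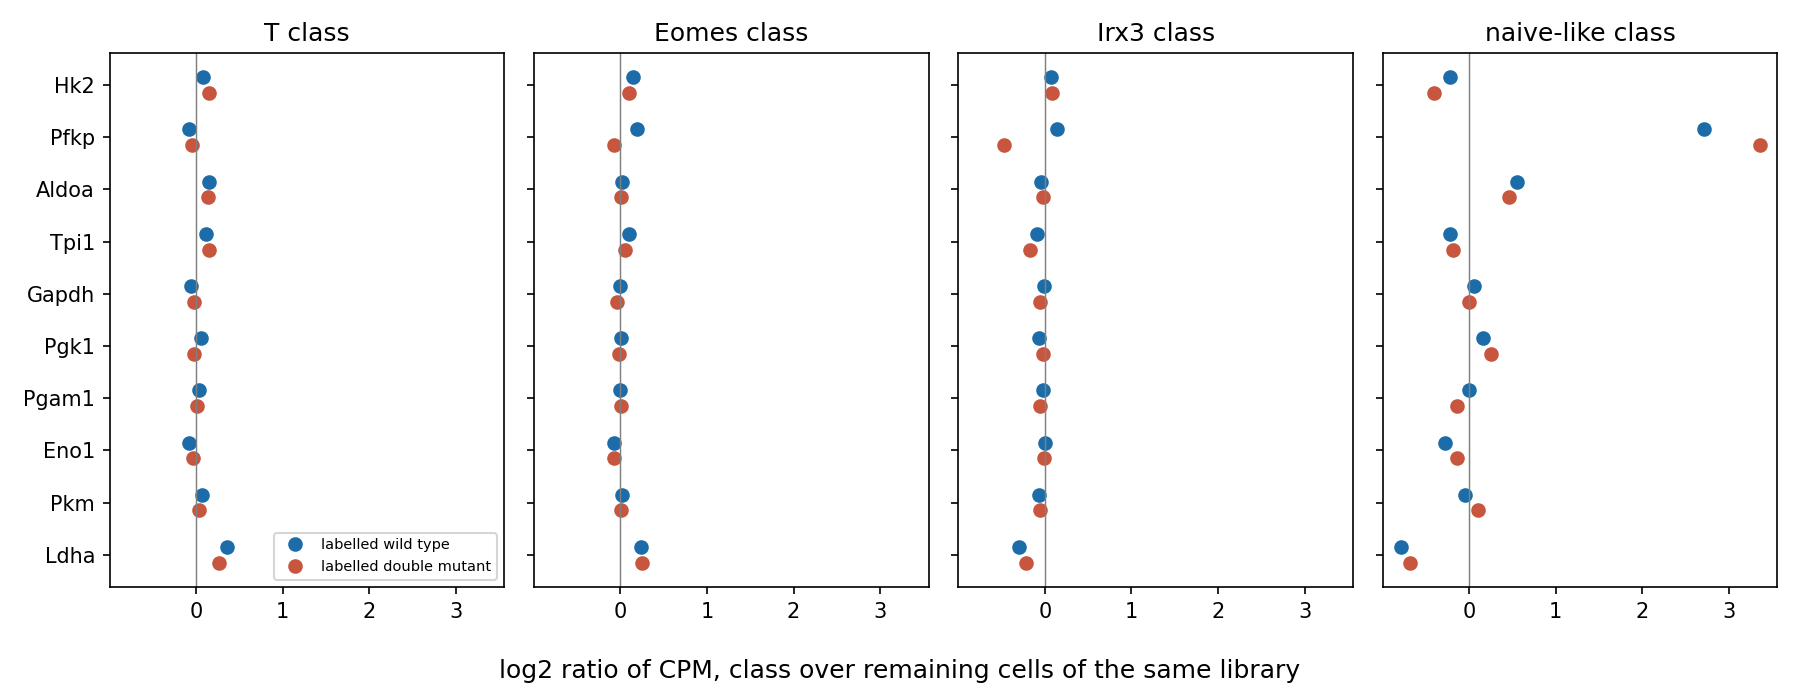
log2 ratio of each member's CPM in T, Eomes, Irx3 and naive-like cells over the remaining cells of the same library, with 1 point per library. Ldha lies to the right in the T and Eomes panels and to the left in the Irx3 and naive-like panels, and Pfkp stands apart in the naive-like panel at 2.7 and 3.4.

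Naive-like cells had more Pfkp and Aldoa and less Ldha than the remaining cells. Of these, the Aldoa and Ldha differences were not particular to this class. Aldoa stood at 463 and 440 CPM in endoderm-like cells, on 96 and 70 UMIs, and Ldha was also lower in Irx3 and endoderm-like cells. Pfkp stood at 53.1 CPM (35.9 to 75.9) in the naive-like and 8.13 CPM in the remaining cells of the library labelled wild type, a log2 ratio of 2.73 (2.12 to 3.25). Under the double-mutant label it stood at 109 CPM (79.8 to 145) and 10.7 CPM, a log2 ratio of 3.37 (2.88 to 3.79). These rest on 30 UMIs in 20 of 60 cells and 46 UMIs in 26 of 54 cells, with at most 4 and 5 in a cell. Among cells thinned to 5000 UMIs, 16.1% and 39.6% of naive-like cells held a Pfkp UMI, against 3.71% and 4.87% of remaining cells, which are read here as background. Barcodes with 10 to 100 UMIs, which hold free RNA, had Pfkp at 5.56 and 13.0 CPM. Pitrm1, which overlaps Pfkp on the other strand, stood at 40.7 and 28.4 CPM in naive-like cells and 39.9 and 35.1 CPM in remaining cells.

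Aldoa was higher in naive-like cells by 0.55 (0.32 to 0.77) and 0.46 (0.19 to 0.71), at 294 against 201 CPM and 303 against 221 CPM. Ldha was lower, at -0.79 (-0.97 to -0.62) and -0.68 (-0.88 to -0.48). The remaining 7 members had ratios between -0.39 and 0.26, and Eno1 in the library labelled wild type, at -0.28 (-0.53 to -0.05), was the only one of these with an interval clear of 0. Past 0.5 in naive-like cells were Pfkp and Aldoa upward and Ldha downward in the library labelled wild type, where 17.2% of genes were that much higher and 13.8% that much lower. They were Pfkp and Ldha in the library labelled double mutant, where the shares were 19.5% and 15.1%.

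The naive-like class is a range of a score and not a separate group. Between 300 and 400 CPM of naive markers lay 81 and 102 cells, and 20 and 18 lay between 400 and 500. With a limit of 800 CPM the ratio of Ldha became -1.76 and -1.46, and with 200 CPM it became -0.20 and 0.065, so the lower Ldha in the library labelled double mutant did not hold at the loose limit. Nor did it hold with classes set in cells thinned to 5000 UMIs, where Ldha gave -0.19 and 0.026. Aldoa was at 0.19 and 0.26 with 200 CPM, at 0.20 (0.04 to 0.35) and 0.15 (-0.01 to 0.30) with the thinned classes, and at 0.37 and 0.44 in cells low on neither chromosome 6 nor 11, a split described further on, so under the wild-type label it did not pass 0.5 in these settings. Pfkp stayed higher at both limits, at 3.74 and 3.71 with the strict and 1.53 and 1.68 with the loose one.

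From cell to cell, counts of Ldha spread beyond counting noise. In cells thinned to 5000 UMIs (8296 and 9970 cells), the variance of Ldha counts was 2.16 and 1.81 times the mean, where counting alone gives 1. Gapdh gave 1.52 and 1.59, and the other 8 members gave between 1.03 and 1.15. This ratio grows with a gene's level, and the coefficient of variation beyond counting does not. The latter was 0.525 and 0.434 for Ldha, between 0.180 and 0.396 for 8 other members, and 1.13 and 0.753 for Pfkp, whose mean was 0.0398 and 0.0519 UMIs. Ldha was at 0 in 658 cells (7.93%, 7.36 to 8.53) and 557 cells (5.59%, 5.14 to 6.06), while counting error around the mean gives 122 and 138 such cells. Summed, the 10 members had a median of 27 and 30 of 5000 UMIs, with 5th to 95th percentiles of 17 to 40 and 19 to 44, and no cell was at 0.

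Cells without Ldha were spread unevenly over the classes. At equal depth they made up 3.86% and 3.32% of T cells, 3.95% and 3.69% of Eomes cells, 9.10% and 6.83% of remaining cells and 11.2% and 9.66% of Irx3 cells. In naive-like cells there were 14 of 56 (95% interval of the share 14.4% to 38.4%) and 14 of 48 (17.0% to 44.1%). Median Ldha counts were 5 in T cells and 3 in Irx3 cells in both libraries. In 98 and 44 cells with at least 2 UMIs of Sox1, an early neural gene and a class added after these values were seen, Ldha stood at 509 and 378 CPM against 822 and 803 in the remaining cells, log2 ratios of -0.69 (-0.81 to -0.57) and -1.08 (-1.33 to -0.86). Gapdh gave -0.26 (-0.32 to -0.20) and -0.28 (-0.38 to -0.19) there. Past 0.5 was Ldha alone in the library labelled wild type, where 11.7% of genes were that much higher and 5.38% that much lower. In the library labelled double mutant Ldha and Pfkp were past it, both downward and Pfkp on 2 UMIs, where the shares were 20.8% and 9.12%.

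**Figure D3:**
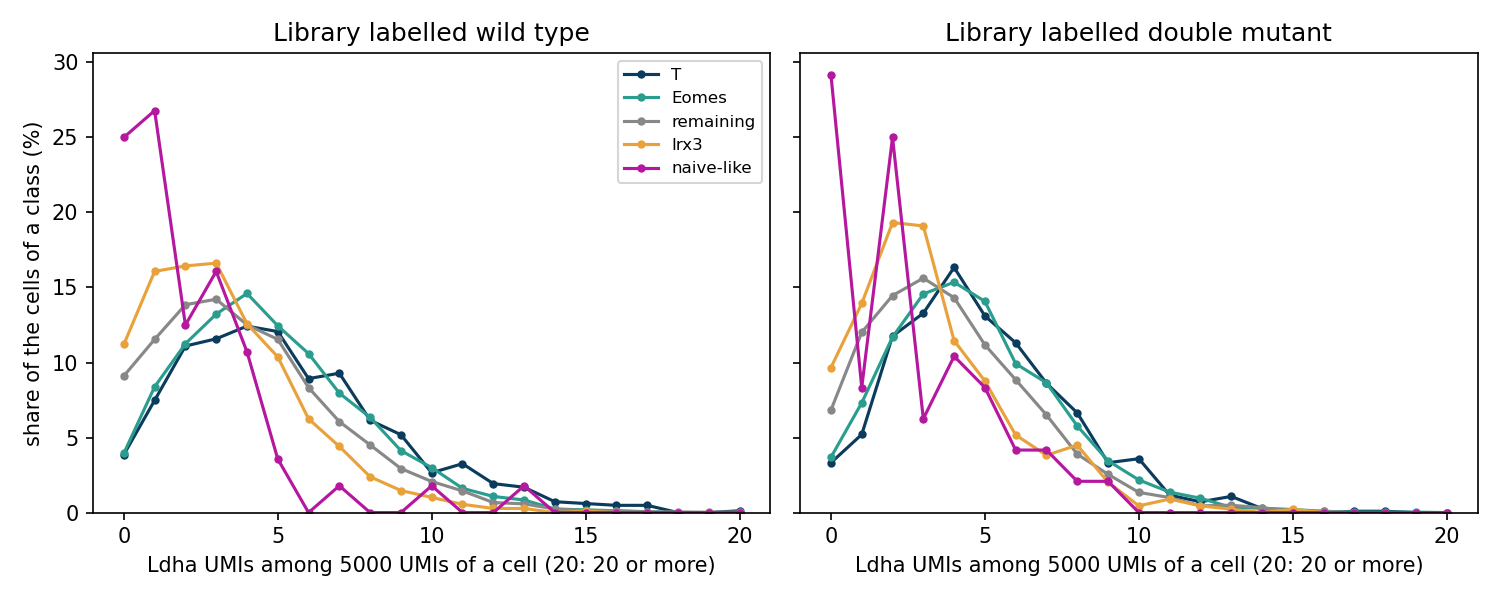
Share of cells (%) with each number of Ldha UMIs among 5000 UMIs of a cell, by class, for the library labelled wild type (left) and the library labelled double mutant (right). The curves of T and Eomes cells lie to the right of the curve of Irx3 cells, and 14 of 56 and 14 of 48 naive-like cells are at 0.

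From cell to cell the members hardly moved together. Over the 36 pairs of members without Pfkp, Pearson's r across thinned cells had a median of 0.03 (wild-type label) and 0.04 (double-mutant label), with maxima of 0.12 in both. These r values describe sparse counts that share a library and a fixed total, and are no finding on joint control. Hk2 had r between -0.03 and 0.00 with the other members in the library labelled wild type, and between -0.03 and 0.04 in the other. Among 2995 genes with a mean of at least 50 CPM, those most like the sum of the members were Prdx1, a peroxidase (r 0.24 and 0.20), Ptma (0.25 and 0.20), Mif (0.20 and 0.19), Pou5f1, the pluripotency factor (0.20 and 0.17), Ppia, Ran, Hsp90aa1, Atp5b, Ybx1 and Psmb3. The least like were Tmsb4x, an actin-binding peptide (-0.15 and -0.14), mt-Co1, mt-Atp6, mt-Co3 and Rpl23a. Every thinned cell was scored as either S phase (4153 and 4893 cells) or G2M phase (4143 and 5077 cells), with no group for other phases. Between these broad groups, no member other than Pfkp differed by more than 0.06. Pfkp differed by 0.25 in the library labelled wild type but by 0.05 in the other.

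Hk2, Tpi1 and Gapdh lie on mouse chromosome 6, and in both libraries some cells had a reduced share of RNA from that chromosome. The share of a cell's UMIs from chromosome 6 was taken without the members and other pathway genes, in cells of 4000 UMIs or more, and set relative to its median over those cells. It was at most 0.8 in 1797 cells (21.3%) of the library labelled wild type and 1877 cells (18.3%) of the other, with medians of 0.734 and 0.710 in these cells. A low chromosome 11 share was found in 17.9% and 5.85% of cells, and no other chromosome passed 2.92%.

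Gapdh was lower in the cells with a low chromosome 6 share. It stood at 2001 CPM in them and 2519 CPM in other cells of the library labelled wild type, a log2 ratio of -0.33 (-0.35 to -0.32). Under the double-mutant label it stood at 2268 and 2996 CPM, a ratio of -0.40 (-0.42 to -0.39). Hk2 gave -0.37 (-0.44 to -0.30) and -0.46 (-0.53 to -0.39), at 99.5 against 128 CPM and 117 against 162 CPM. Tpi1 gave -0.37 (-0.43 to -0.31) in the library labelled double mutant, at 163 against 210 CPM, but differed little in the library labelled wild type, at 155 against 162 CPM (-0.06, -0.12 to 0.00). The other chromosome 6 genes, which include those that chose the cells, had medians of -0.49 and -0.53.

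The 7 members on other chromosomes were mostly higher in the same cells, with medians of 0.22 and 0.10 against 0.01 and -0.01 for all genes. Ldha was higher by 0.68 (0.66 to 0.70) and 0.37 (0.35 to 0.40), at 1225 against 765 CPM and 1070 against 827 CPM. Aldoa was higher by 0.52 (0.47 to 0.57) and 0.39 (0.34 to 0.44), and Pgk1 by 0.28 (0.23 to 0.33) and 0.10 (0.05 to 0.15). At the limit of 0.5, Ldha and Aldoa passed upward in the library labelled wild type (Aldoa not with scaling to UMIs from other chromosomes, at 0.499), where 1.61% of genes were that much higher and 3.72% that much lower. No member passed in the library labelled double mutant, where the shares were 0.873% and 3.53%. T cells made up 15.4% of the low cells and 8.34% of the others in the library labelled wild type, but 10.1% and 11.2% in the library labelled double mutant, and their part in the Ldha ratio was not tested.

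Low shares of chromosomes 6 and 11 overlapped in the library labelled wild type, where 1190 cells were low on both, 607 on chromosome 6 alone and 319 on chromosome 11 alone. These numbers were 255, 1622 and 343 in the library labelled double mutant. In cells low on chromosome 6 alone, Gapdh stood at 1965 and 2256 CPM, against 2536 and 2987 CPM in cells low on neither. Hk2 stood at 86.3 and 115 CPM against 128 and 160 CPM in the same comparison, and Ldha at 1067 and 1051 CPM against 750 and 819 CPM. In cells low on chromosome 11 alone, Ldha was at 1133 and 1047 CPM, and Gapdh was at 2110 CPM in the library labelled wild type but 3233 CPM in the other, so for Gapdh the libraries differed in direction there. The ratio between libraries of Tpi1 was 0.38 (0.34 to 0.41) in cells with an ordinary chromosome 6 share and 0.07 (-0.01 to 0.14) in cells with a low one. For Hk2 these ratios were 0.33 and 0.24, for Gapdh 0.25 and 0.18, and for Ldha 0.11 and -0.20. In cells low on neither chromosome, the T over Irx3 ratio of Ldha was 0.52 and 0.47.

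**Figure D4:**
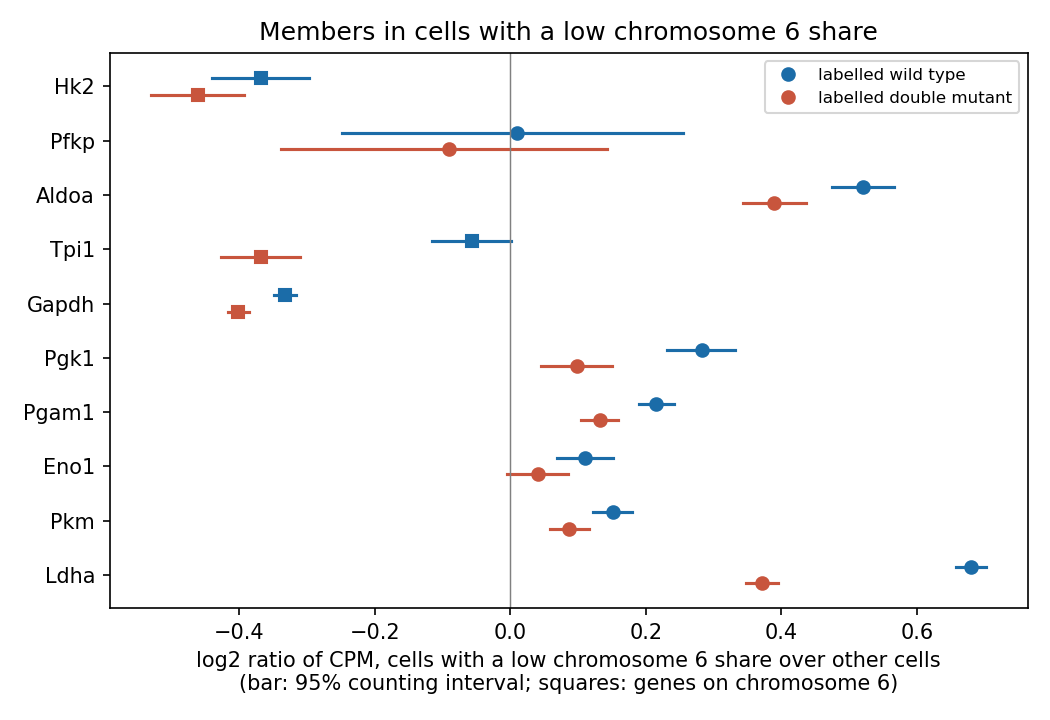
log2 ratio of each member's CPM in cells with a low chromosome 6 share over the other cells of the same library, with 95% counting intervals. The chromosome 6 genes Hk2 and Gapdh (squares) lie left of 0 in both libraries, Tpi1 is clearly left of 0 only in the library labelled double mutant, and Ldha and Aldoa lie farthest to the right.

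The genes around the pathway gave a mixed picture. Of 107 listed isozymes, transporters, regulators, branch genes, TCA cycle genes and targets of hypoxia-inducible factors, 62 had a mean of at least 10 CPM. Of these, 6 were at least 0.25 higher and 2 that much lower in the library labelled double mutant. Among all 7607 genes at this level the shares were 3.13% and 4.67%. The median of the 62 genes was 0.00. Higher were Slc16a3, a lactate exporter (22.2 and 34.0 CPM, log2 ratio 0.62), Pfkl, the liver form of phosphofructokinase (58.2 and 77.4 CPM, 0.41), Pdk1, which inhibits pyruvate dehydrogenase (0.44), Pck2, the mitochondrial PEP carboxykinase (0.56), and Phgdh and Psat1 of serine synthesis (0.42 and 0.52). Lower were Sdhd, a subunit of succinate dehydrogenase (80.2 and 50.3 CPM, -0.67), and Ddit4, an inhibitor of mTORC1 (-0.35). The 15 genes of the TCA cycle had a median of -0.03 and, beside Sdhd, none past the limit. The 11 measured genes listed as targets of hypoxia-inducible factors had a median of -0.07 and, beside Ddit4, none past the limit.

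The main glucose transporters were lower in T than in Irx3 cells, where Ldha was higher. Slc2a1, the general glucose transporter, stood at 246 CPM in T and 492 CPM in Irx3 cells of the library labelled wild type and at 240 and 457 CPM in the other, ratios of -0.998 (-1.06 to -0.93) and -0.93 (-1.01 to -0.84). Slc2a3, the high-affinity transporter, gave -0.93 and -1.08. Higher in T cells were Mpc1, a subunit of the mitochondrial pyruvate carrier (1.56 and 1.07), Pdk1 (0.74 and 0.79) and Emb, a partner of the lactate transporters (0.59 and 0.83). Of the 6 isozyme genes at this level, none passed 0.5 for T over Irx3 in either library.

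In naive-like cells Ldhb, which encodes the other main lactate dehydrogenase subunit, was higher where Ldha was lower. Ldhb stood at 475 against 226 CPM and 481 against 234 CPM, ratios of 1.08 (0.89 to 1.25) and 1.04 (0.83 to 1.24). Slc2a1 was lower there, as was Ldha, at -0.90 (-1.19 to -0.64) and -1.52 (-1.97 to -1.13), and Slc2a3 gave 0.08 and -0.29 with intervals over 0. Kdm3a, a histone demethylase, was higher by 2.12 (1.63 to 2.55) and 2.37 (1.79 to 2.85), and Pdk1 by 1.68 (1.21 to 2.09) and 1.07 (0.48 to 1.57). Of all genes, 17.2% and 19.5% were at least 0.5 higher in these cells, and 13.8% and 15.1% that much lower. The lower Ldha under the double-mutant label did not hold with a limit of 200 CPM or with classes from thinned cells. Ldhb, Slc2a1, Slc2a3, Kdm3a and Pdk1 were not computed in those settings.

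Some counts could be shared with neighbouring or similar genes. Eno1b, listed on chromosome 18 and close in sequence to Eno1, had 26.1 and 23.6 CPM, and reads that fit both cannot be placed here. Gapdh, Tpi1, Aldoa, Hk2 and Pfkp each overlap a gene on the other strand, and the use of strand in the counting is not given in the sources used here. The partner genes of Gapdh, Tpi1, Aldoa and Hk2 (Iffo1, Spsb2, Fam57b and Gm17034) had between 24 and 624 UMIs in a library, far fewer than these members, while Pitrm1 had 4034 and 3500 UMIs against 843 and 1045 for Pfkp.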

How the data were processed

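The authors deposited unfiltered matrices of raw UMI counts per gene and barcode from 10x 3′ v3.1 libraries. The labels' protocols name Cell Ranger 8.0.1, while the submitters' processing notes name STARsolo, STAR 2.7.9a, Seurat 5.1.0 and mm10, and the step that wrote the counts is not given in the sources used here. The labels give 9238 and 11190 cells with medians of 5333 and 5398 genes, and the kept cells here had medians of 3275 and 2884 genes. Over all barcodes the libraries held 104083993 and 103187025 UMIs.

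Barcodes with at least 2500 UMIs, at least 1000 genes and at most 10% mitochondrial UMIs were kept, of 8772 and 10613 with enough UMIs. Doublets were kept in the main values and removed in an alternative by a nearest-neighbour score against simulated doublets, at 0.8% per 1000 cells (606 and 897 cells). Counts were summed and scaled to CPM with Python 3.11.15, numpy 2.4.6 and scipy 1.17.1. TMM factors came from edgeR 4.0.16. No model was fitted. Ratio intervals are exact conditional intervals, level intervals exact Poisson and shares exact Clopper-Pearson, and the calculation was tested on simulated data. Genes were placed by symbol in GENCODE vM21 on GRCm38. The members, gene lists and classes were chosen with earlier results of these data known, and Nanog and Tdh were left out of the naive-like score after their wide expression was seen. All members are named throughout, with up to 4 genes from each list that have the largest ratios at a mean of at least 10 CPM.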

Additional observations from a re-analysis of the deposited data

Results flagged for a closer look

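The T over Irx3 ratio of Gapdh was -0.06 under the wild-type label and 0.04 under the double-mutant label, with counting intervals on opposite sides of 0. The difference between the libraries was not tested, since each genotype has 1 library. In cells low on neither chromosome 6 nor chromosome 11 the ratios were -0.001 and 0.003.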

How the results depend on the processing

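Of the values of single members under an alternative, leaving aside Ldha between classes, Pfkp in naive-like cells and the sums given below, 457 stayed within the counting interval of the main value and 71 left it. Among members past the limits of 0.25 or 0.5, Ldha in naive-like cells of the library labelled double mutant changed sign, in the settings given below. The sum of the members between libraries was 0.18 with TMM scaling, 0.17 with scaling without mitochondrial and ribosomal protein genes, 0.16 with at most 5% mitochondrial UMIs, 0.18 in cells low on neither chromosome 6 nor 11, and 0.15 with the same class weights. The median over all genes was 0.01 with TMM scaling and -0.01 without mitochondrial and ribosomal protein genes. Ldha in T over Irx3 cells, giving first the library labelled wild type, was 0.75 and 0.63 with stricter marker counts and 0.62 and 0.41 with classes from thinned cells. In the library labelled wild type it was 0.60 in S phase cells, 0.72 without doublets and 0.52 in cells low on neither chromosome. In naive-like cells Ldha was -0.19 and 0.026 with classes from thinned cells, -0.20 and 0.065 with a limit of 200 CPM, and -1.76 and -1.46 with 800 CPM. Pfkp was 1.89 and 1.80, 1.53 and 1.68, and 3.74 and 3.71 in the same settings. The cause was not tested.

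The sum of Hk2, Tpi1 and Gapdh in cells with a low chromosome 6 share, -0.32 and -0.40, was -0.29 and -0.38 with a limit of 0.75, -0.34 and -0.43 with scaling to UMIs from other chromosomes, -0.38 within the T class of the library labelled double mutant, and -0.36 in cells of the library labelled wild type with an ordinary chromosome 11 share, which was added after seeing the data. The mean summed level per cell, 5513 and 6161 CPM, was 5591 and 6186 CPM at 2500 UMIs and 5557 and 6187 CPM without thinning. With genes of a mean of at least 1 CPM, 14 other pathway genes were higher in place of 6. The share of all genes past the limit was not computed at that mean, so the 14 have no background to be read against. Leaving endoderm-like cells in the classes, also added later, changed no Ldha or Pfkp value beyond its interval. No paired analysis was possible because each genotype has 1 library. With 1 library per genotype no replicate could be left out, and depth limits Pfkp most.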
